A study of Danio rerio with 4 samples.

Results

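The genes described here are those in which the mixture of transcripts differed between zebrafish embryos (Danio rerio) given rbm14 morpholinos and their controls at both stages sampled. In each gene the main transcript was the one with the highest mean TPM over the 4 libraries. TPM is a transcript abundance per unit of transcript length, set to a fixed sum in each library, and is given below as deposited, without rescaling. Genes were chosen by measured values of these same libraries: a gene was taken when the main transcript's share of the gene's summed TPM differed by 20 or more percentage points between the treatments at 10 hours post fertilization (hpf) and again at 24 hpf. Genes needed at least 2 transcripts and a summed level of at least 10 TPM in every library, which 2037 of 28697 gene symbols met. Of these, 24 passed at both stages, and 22 genes remained after npm1a and oaz1b were left out by the rule. The share differed in the same direction at both stages in 16 genes and in opposite directions in 6.

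Rbm14 is an RNA-binding protein, and the series asks how it takes part in patterning the dorsoventral axis. Embryos at the one-cell stage received 2 nl holding either 8 ng of a control morpholino (ctrl-MO) or 4 ng each of morpholinos against the paralogs rbm14a and rbm14b (14-MO). Controls and knockdowns alike also carried 300 pg of GFP mRNA as an injection marker and were kept at 28.5 °C. There was 1 poly(A) RNA library per treatment and stage, each from 50 pooled embryos. With 1 library per group no difference between treatments within a stage has a replicate check, and no test was run. Whether the morpholinos block translation or splicing is not given in the labels, and a morpholino's side effects cannot be told apart from loss of Rbm14.

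One gene can give several transcripts, through alternative start sites, alternative splicing and alternative polyadenylation. Such transcripts may encode different proteins, differ in stability or translation, or be degraded by nonsense-mediated decay. RNA-binding proteins, among them SR proteins and hnRNPs, take part in these choices, and many control the processing of their own transcripts. During early zebrafish development maternal transcripts are also replaced by zygotic ones, so the mixture of a gene changes with age as well. The exon structure of the transcripts named below was not used here, so they are given by Ensembl identifier and no coding change is described.

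The targeted genes were detected in all 4 libraries. Summed rbm14a was 170 against 254 TPM at 10 hpf (control against rbm14) and 70.5 against 82.7 TPM at 24 hpf, and summed rbm14b was 28.8 against 19.25 TPM and then 21 against 28.2 TPM. At 10 hpf rbm14a was higher and rbm14b lower with and without scaling of the libraries. At 24 hpf the direction of both depended on the scaling. After subtracting a trimmed mean log2 ratio over all genes, which was −0.25 at 10 hpf and 0.64 at 24 hpf, the log2(TPM + 0.5) ratio of rbm14 over control was 0.83 for rbm14a and −0.32 for rbm14b at 10 hpf, and −0.41 and −0.22 at 24 hpf, while without rescaling it was 0.58 and −0.57, then 0.23 and 0.42. The labels could not be checked by these levels, since a morpholino that blocks translation need not lower its target's RNA. The main rbm14b transcript held 96.7% and 76.3% at 10 hpf and 99.4% and 83.8% at 24 hpf, differences of −20.4 and −15.6 points that left it outside the set. In rbm14a the main transcript held 78.2% and 73.6%, then 81.9% and 71.6%.

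All values used to choose the genes are given as descriptions. A share difference of 20 points was reached by 72 of the 2037 eligible genes at 10 hpf (3.53%) and by 148 at 24 hpf (7.27%), and both stages were passed by 1.18% of them. The 24 genes that passed at both stages were 33.3% of those that passed at 10 hpf and 16.2% of those that passed at 24 hpf. Of the 24, 18 differed in the same direction (0.884% of eligible genes, npm1a and oaz1b among them) and 6 in opposite directions (0.295%). Between the stages, the same difference separated the control libraries in 7.95% of eligible genes and the rbm14 libraries in 6.28%. Across treatment and stage it was 5.65% for the 24 hpf rbm14 and 10 hpf control libraries, and 9.72% for the 24 hpf control and 10 hpf rbm14 libraries. Treatment at 10 hpf thus gave the lowest share of the 6 library pairs, and treatment at 24 hpf lay within the range of the pairs that differ in stage. In pools of whole embryos fewer cells of a type and less RNA per cell cannot be told apart, and neither can a changed mixture within cells and a changed make-up of the cells. Just inside the threshold, counted by the smaller of the 2 differences, lay phc2a (20.4 points at 10 hpf) and ccdc160 (−20.2 points at 24 hpf). Just outside lay psmc1b, with 25.2 and −19.7 points at 10 and 24 hpf, and her12, with 22.7 and 19.7 points.

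**Figure D1:**
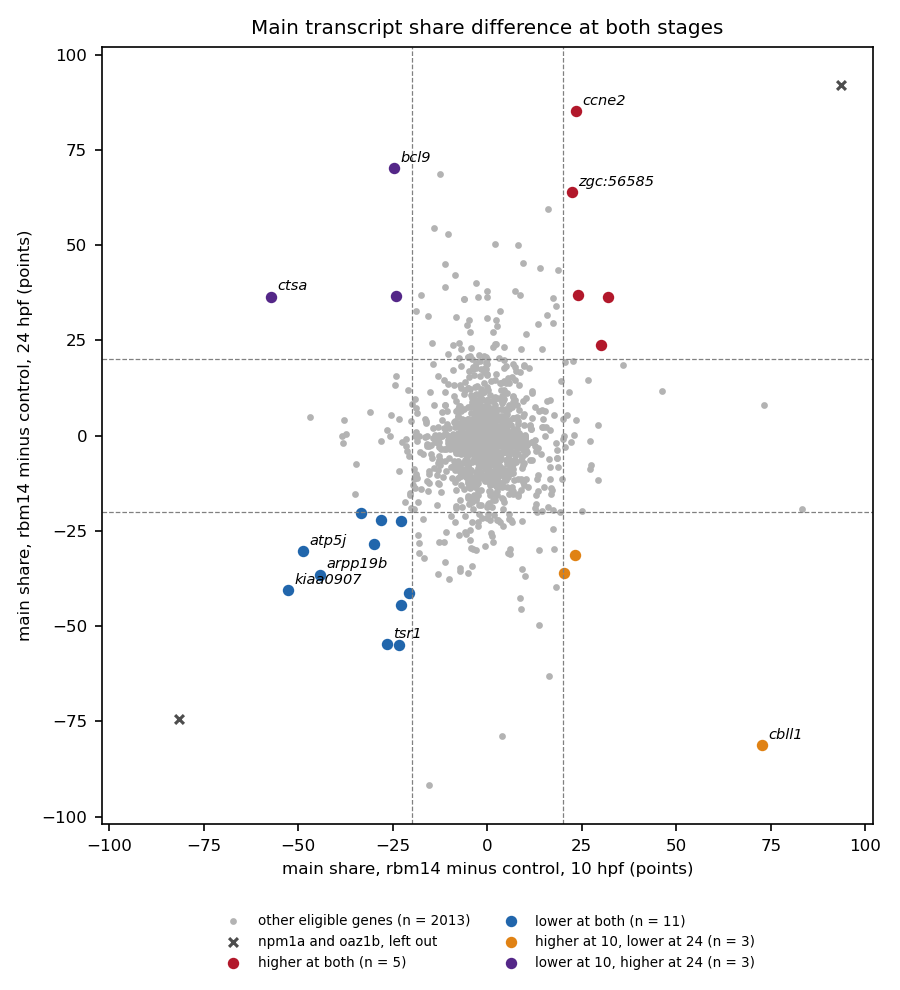
Difference in main transcript share, rbm14 minus control morpholino library, at 10 hpf (x) and 24 hpf (y) in percentage points, 1 point per eligible gene (2037 in all), with dashed lines at 20 points. The 16 same-direction genes lie in the lower left (11) and upper right (5) corners and the 6 opposite-direction genes in the other corners.

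The 22 genes had a median of 4 annotated transcripts, against 3 for all eligible genes, and their main transcript held a median of 62.4% of the summed TPM over the libraries, against 92.7%. Their lowest summed level had a median of 17.0 TPM, against 26.01 TPM for all eligible genes, and ranged from 10.4 TPM (ets2) to 65.1 TPM (arpp19b). The rule itself bounds that share, since a gene that must differ by 20 points at both stages cannot have a main share near 100% throughout. They carried 76 annotated transcripts, of which 63 reached 1 TPM in some library and 7 were listed at 0 in all 4. Of the 22 symbols, 19 matched a RefSeq gene directly and 2 through a synonym (kiaa0907 as khdc4, and atp5j as atp5pf), and all 21 are protein-coding there. The remaining symbol, a clone name whose main transcript is ENSDART00000135647, did not match.

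Only part of the set changed its most abundant transcript in the strict sense. The most abundant transcript differed between the treatments in 10 of 22 genes at 10 hpf, beside 3.98% of all eligible genes. At 24 hpf it differed in 13, beside 5.4%, and at both stages in 6, beside 1.37%. These 6 were cdc20, myh9a, cbll1, ubap2l, ctsa and ttc3. Choosing genes by a share difference favours such changes, so the higher rates among the 22 follow in part from the rule. In 5 genes the most abundant transcript differed at neither stage, among them phc2a and ccdc160. These are described better by a shifted share than by a switch.

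**Figure D2:**
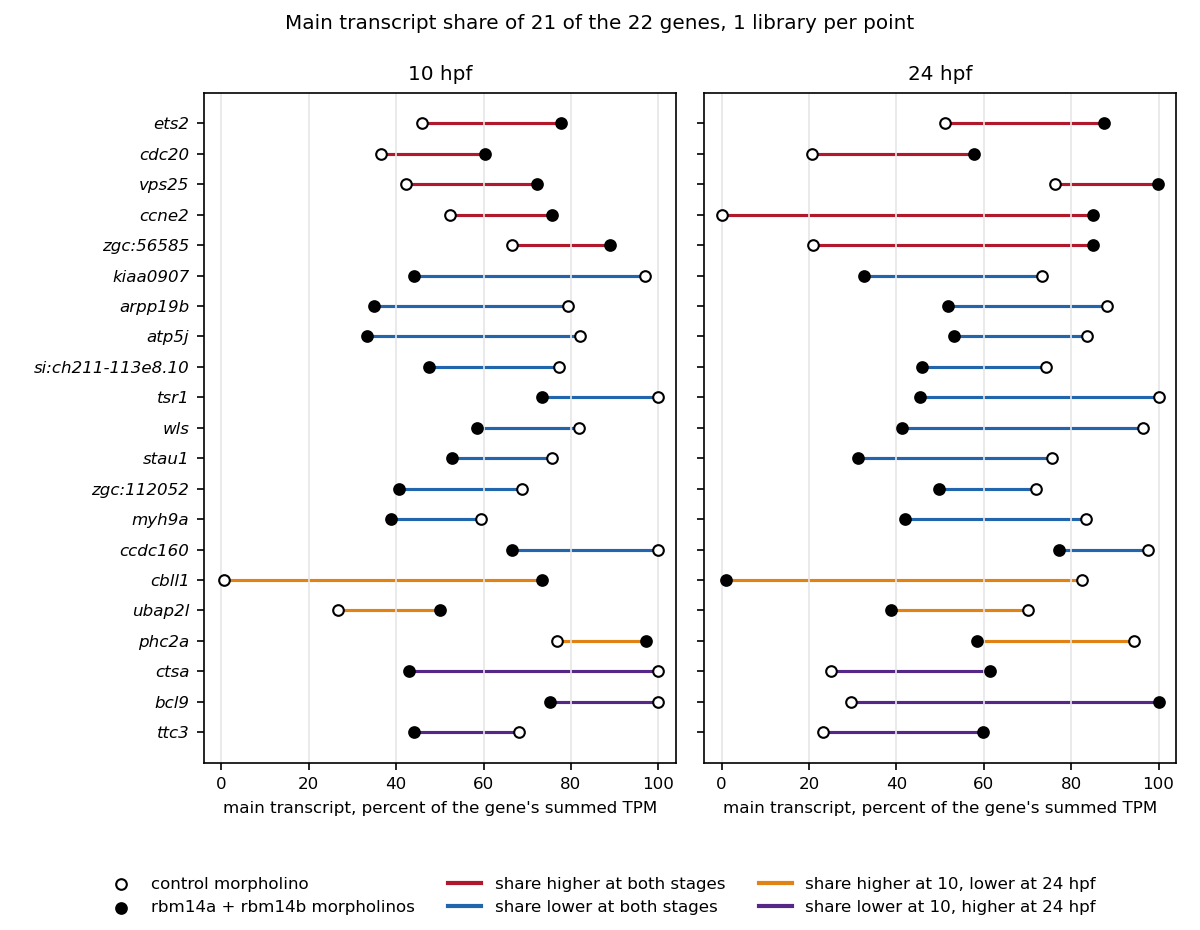
Share of the main transcript in percent of the gene's summed TPM at 10 hpf (left) and 24 hpf (right), for 21 of the 22 genes. Open circles are control and filled circles rbm14 morpholino libraries, 1 library per point, with lines coloured by direction class. Of the genes drawn, shares are lower with the rbm14 morpholinos at both stages in 10, higher at both in 5, and cross over between the stages in 6.

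The RNA-binding genes stau1 and kiaa0907 both had a lower main share with the rbm14 morpholinos at both stages. In each, another transcript stood higher. Staufen 1, encoded by stau1, binds double-stranded RNA and takes part in mRNA transport and decay. The main transcript ENSDART00000064865 held 75.6% of stau1 in both control libraries, and 52.8% and 31.2% in the rbm14 libraries at 10 and 24 hpf. The second transcript, ENSDART00000133992, had 4.59 against 13.2 TPM at 10 hpf, and 4.9 against 29.96 TPM at 24 hpf. In the 24 hpf rbm14 library it therefore stood above the main transcript, which was at 16.3 TPM there and at 22.5 TPM in the control. The gene kiaa0907 is the homolog of KHDC4, which in human cells is an RNA-binding protein linked to pre-mRNA splicing. Its main share was 96.9% and 44.2% at 10 hpf and 73.2% and 32.6% at 24 hpf, the largest difference at 10 hpf (−52.7 points) among the same-direction genes. A second transcript, ENSDART00000161833, was listed at 0 in both control libraries and stood at 10.2 and 10.35 TPM in the rbm14 libraries. The next transcript, ENSDART00000155966, had 0.25 against 3.31 TPM at 10 hpf and 1.07 against 4.99 TPM at 24 hpf.

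For ribosome production the set held tsr1, whose product is needed to mature the small ribosomal subunit. In both control libraries the whole of tsr1, 64.4 TPM at 10 hpf and 18.4 TPM at 24 hpf, was assigned to ENSDART00000162240. With the rbm14 morpholinos that transcript stood at 54.9 TPM and 19.1 TPM. A second transcript, ENSDART00000052645, was listed at 0 in both controls and at 19.85 and 22.97 TPM in the rbm14 libraries, which left main shares of 73.4% and 45.3%. Both rbm14 libraries thus held a tsr1 transcript that neither control listed. No fold of this transcript is given against the controls, since a listed 0 can also come from an estimate that failed.

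Among the cell cycle genes, the main transcript of cdc20 and ccne2 depended on the libraries used to choose it. That of arpp19b did not. For the transcript that leads over all 4 libraries, the share was higher in cdc20 and ccne2 and lower in arpp19b. With the main transcript taken from the controls, which in arpp19b is the same transcript, each was lower at both stages. The differences were then −12.5 and −25.2 points in cdc20 and −27.1 and −85.6 in ccne2, and unchanged at −44.3 and −36.5 in arpp19b. Choosing the transcript highest in the controls by itself favours a lower share with the rbm14 morpholinos. The second arpp19b transcript, ENSDART00000058336, differed by 43.7 and 35.9 points, so there too the sign depends on the transcript followed. Cdc20 activates the anaphase-promoting complex. Its main transcript, ENSDART00000161106, stood at 21.2 against 62.2 TPM at 10 hpf (control against rbm14), and at 3.18 against 14.99 TPM at 24 hpf. The other leading transcript, ENSDART00000160060, had 24.35 against 30.2 TPM and then 9.23 against 9.11 TPM. The main share was thus 36.4% and 60.3% at 10 hpf and 20.8% and 57.8% at 24 hpf, and the identity of the most abundant cdc20 transcript differed at both stages.

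Cyclin E2, encoded by ccne2, binds Cdk2 at entry into S phase. At 10 hpf the main transcript ENSDART00000169412 held 52.3% and 75.7% of ccne2 (67.7 against 78.9 TPM). The 24 hpf control library listed it at 0 and assigned 23.3 TPM to ENSDART00000161503, while the rbm14 library had 20.1 TPM of the former and 3.38 TPM of the latter. Summed ccne2 was 23.3 against 23.6 TPM. The 24 hpf difference of 85.1 points thus rests on 1 library in which the transcript was listed at 0. Arpp19 inhibits the phosphatase PP2A-B55 when phosphorylated and so favours entry into mitosis. The main transcript of arpp19b, ENSDART00000168013, stood at 51.6 against 25.7 TPM at 10 hpf, and at 75.7 against 33.8 TPM at 24 hpf. Its partner ENSDART00000058336 stood at 12.99 against 46.7 TPM and at 10.03 against 31.1 TPM. With the rbm14 morpholinos 1 transcript was thus lower and the other higher in TPM at both stages, with main shares of 79.3% and 35.0%, and of 88.3% and 51.8%.

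Of the genes for signalling and transcription, ets2 and wls differed in 1 direction at both stages. Ets2 is an ETS-family transcription factor downstream of Ras and MAP kinase signalling. Its main transcript ENSDART00000161007 stood at 7.91 against 20.97 TPM at 10 hpf, and at 5.31 against 14.8 TPM at 24 hpf. The second, ENSDART00000167367, had 9.08 against 3.09 TPM, and then 5.07 TPM in the control and a value listed at 0. Main shares were 45.99% and 77.8%, then 51.2% and 87.5%, so that an even mixture in both controls was one-sided in both rbm14 libraries. Wntless, encoded by wls, carries Wnt ligands to the cell surface. The main wls transcript, ENSDART00000016369, had 23.85 against 11.4 TPM at 10 hpf and 14.5 against 11.9 TPM at 24 hpf. The other, ENSDART00000130302, had 5.27 against 8.05 TPM, and then 0.55 against 16.9 TPM. The main share was 81.9% and 58.6%, then 96.4% and 41.3%.

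The remaining named genes of 1 direction serve mitochondria, endosomes and the cytoskeleton. For atp5j, whose product is coupling factor 6 of the mitochondrial ATP synthase, the main transcript ENSDART00000134456 held 82.2% and 33.4% at 10 hpf and 83.6% and 53.2% at 24 hpf. A second one, ENSDART00000004062, stood at 5.02 against 49.5 TPM at 10 hpf, and at 5.08 against 57.6 TPM at 24 hpf. That transcript was at like levels in both controls and far above them in both rbm14 libraries, while the main one had 42.01 against 25.1 TPM and then 110.3 against 79.6 TPM. The gene vps25 encodes a subunit of ESCRT-II, which sorts ubiquitinated cargo on endosomes. Its main share was 42.2% and 72.2% at 10 hpf and 76.3% and 99.98% at 24 hpf, and the alternative ENSDART00000082093 had 13.6 against 7.95 TPM, then 3.83 against 0.01 TPM. The main vps25 transcript ENSDART00000152433 had 9.96 against 20.7 TPM, then 12.3 against 48.3 TPM. The 24 hpf control share of vps25 lay above the 10 hpf rbm14 share. Non-muscle myosin IIA heavy chain, encoded by myh9a, drives cell shape change and cytokinesis. Its main share was 59.5% and 38.7%, then 83.3% and 41.96%. The second transcript ENSDART00000105232 had 10.1 against 16.6 TPM at 10 hpf and 8.35 against 42.01 TPM at 24 hpf, and was the more abundant one in both rbm14 libraries.

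For 4 same-direction genes no role is given. The main share of zgc:56585 was 66.4% and 88.8% at 10 hpf and 20.9% and 84.9% at 24 hpf, and its other transcript ENSDART00000136402 had 19.2 against 4.99 TPM and then 15.1 against 5.85 TPM. The main transcript of zgc:56585 had 38.1 against 39.7 TPM and then 3.99 against 33.0 TPM. In the other 3 genes the main share was lower with the rbm14 morpholinos. It was 77.4% and 47.4%, then 74.3% and 45.8%, in the clone-named gene of ENSDART00000135647, whose second transcript ENSDART00000113527 had 2.74 against 12.6 TPM and then 1.51 against 6.88 TPM. The main transcript of that gene had 23.8 against 14.4 TPM and then 9.32 against 7.66 TPM. In zgc:112052 the main share was 68.9% and 40.7%, then 71.9% and 49.7%, and ENSDART00000114751 had 0.93 against 4.61 TPM and then 0.49 against 7.11 TPM. The main zgc:112052 transcript had 12.45 against 6.28 TPM and then 7.63 against 16.7 TPM, so at 24 hpf only its share was lower. In ccdc160 all 14.3 TPM of the 10 hpf control were main transcript, against 66.5% with the rbm14 morpholinos, and at 24 hpf the shares were 97.5% and 77.3%. The second ccdc160 transcript, ENSDART00000115005, was listed at 0 and at 0.27 TPM in the controls and stood at 9.58 and 6.06 TPM in the rbm14 libraries. The main ccdc160 transcript had 14.3 against 18.99 TPM and then 10.6 against 20.6 TPM, so its share was lower while its TPM was higher. Across the 16 same-direction genes, the control shares of the stages differed by a median of 7.11 points, against 2.78 points over all eligible genes. The difference was under 10 points in 9 of the 16 and 20 points or more in 5.

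**Figure D3:**
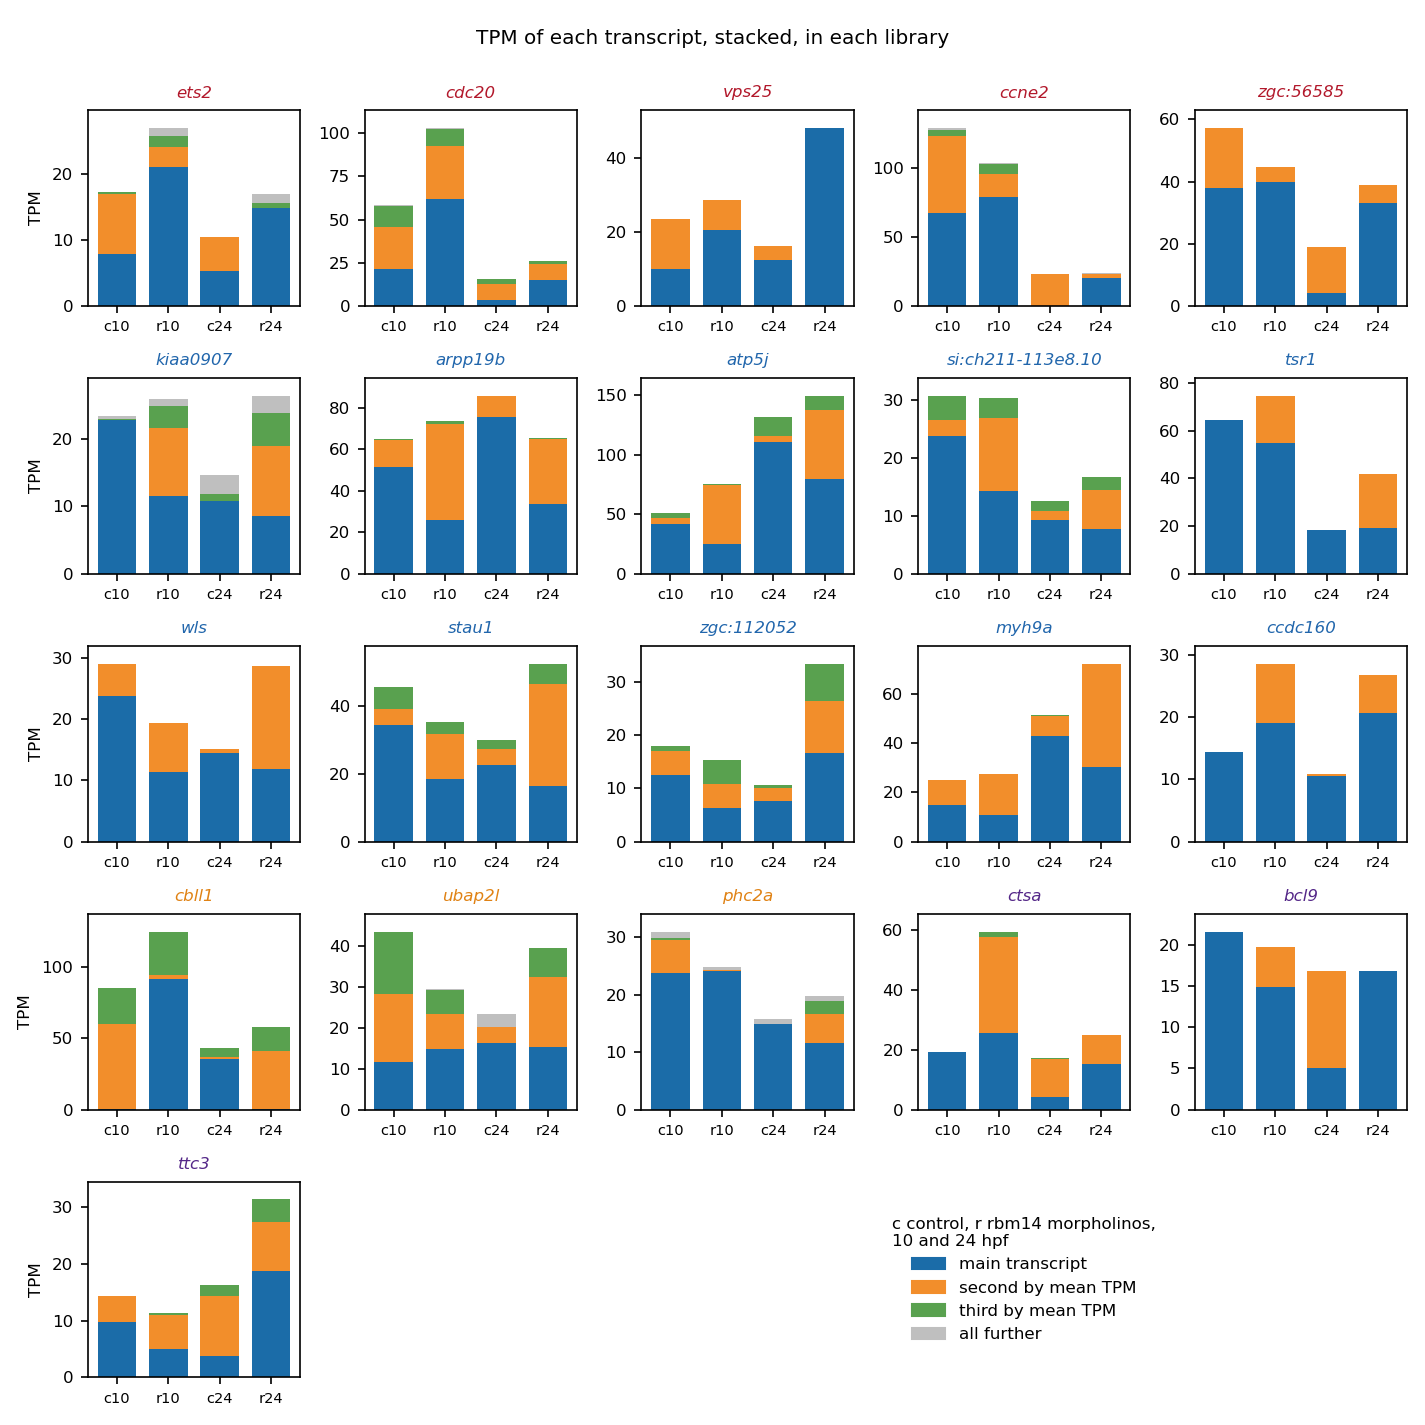
TPM of each transcript in each library, stacked, for 21 of the 22 genes (c control, r rbm14 morpholinos, 10 and 24 hpf), gene names coloured by direction class. In tsr1 the second transcript is seen only in the 2 rbm14 libraries, and in cbll1 the first and second transcripts change places between treatments and again between stages.

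The TPM behind a share was read for both sides of the mixture, the main transcript and the others. Log2 ratios of the rbm14 over the control library were taken on the log2(TPM + 0.5) scale after the same scaling, and understate the change of low transcripts. By construction a lower share needs the main transcript to stand lower or the others higher. The counts below were taken in the chosen genes only, not over all eligible genes, and follow in part from the rule. In all 11 genes with a lower main share, the summed other transcripts stood higher at both stages, under this scaling, under median-of-ratios scaling and without rescaling. In 7 of the 11 at 10 hpf and 8 at 24 hpf that difference was 2-fold or more, and without rescaling it was 2-fold in 7 and 11. These counts include tsr1 at both stages and ccdc160 at 10 hpf. There the other transcripts were listed at 0 in the control, so the size of the ratio depends on the pseudocount. The main transcript was 2-fold lower in none of the 11 at 10 hpf and in 4 at 24 hpf (arpp19b, atp5j, stau1 and myh9a), and without rescaling in 1 at each stage. Since the other transcripts started lower, the same TPM makes a larger fold in them. The main transcript was chosen with the rbm14 libraries counted, so a transcript much lower in them tends not to be the main one. Few 2-fold lower main transcripts thus follow in part from the rule. At 10 hpf the transcript with the highest mean over both controls stood at 9.08 against 3.09 TPM in ets2. It stood at 55.8 against 16.7 TPM in ccne2 and at 24.35 against 30.2 TPM in cdc20. In ccne2 the 10 hpf control alone was led by the main transcript, at 67.7 against 78.9 TPM. A higher share, too, needs by construction the main transcript to stand higher or the others lower. In ets2, cdc20 and ccne2 the main transcript was also chosen with the rbm14 libraries counted, and the controls alone give another. As a description only, in all 5 genes with a higher main share the main transcript stood higher at both stages under each of the 3 scalings. The other transcripts stood lower in 4 of the 5 at 10 hpf, the exception being cdc20, and in 5 at 24 hpf.

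**Figure D4:**
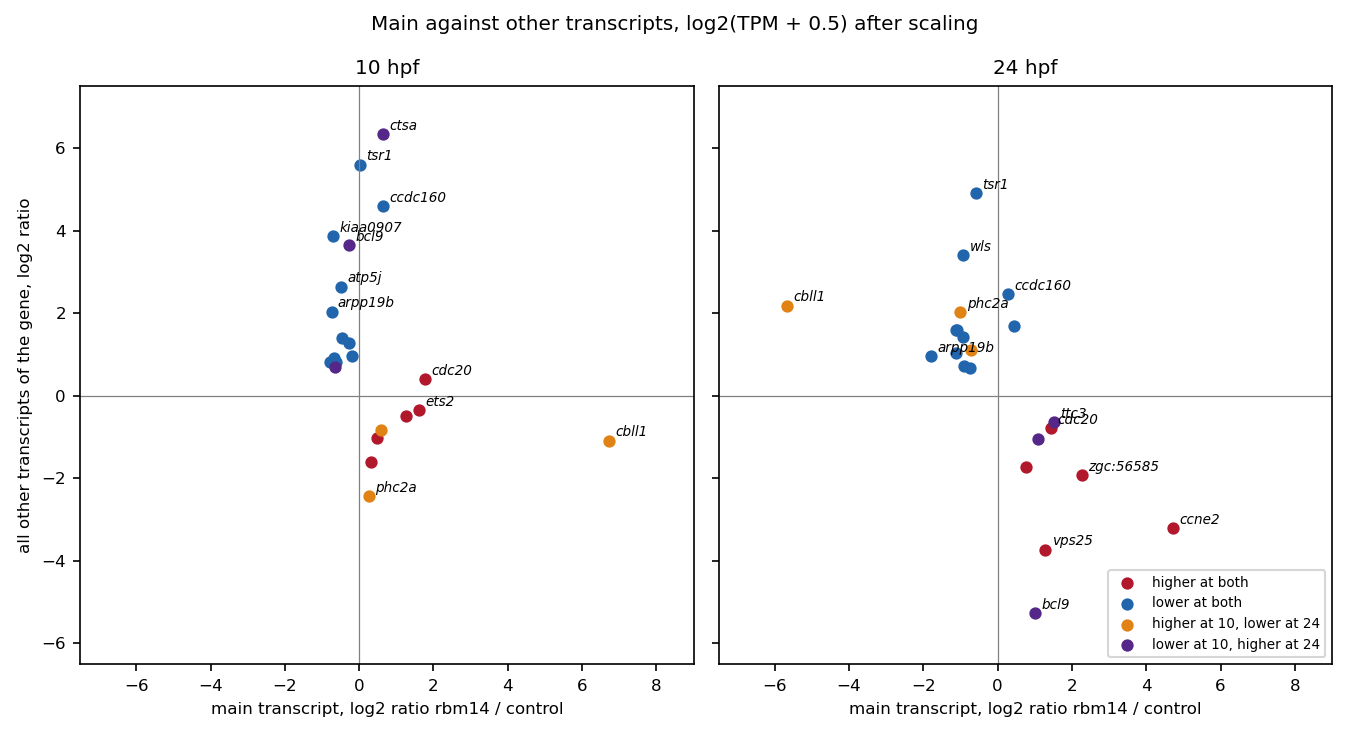
Log2 ratio of the main transcript (x) against that of all other transcripts of the gene summed (y), rbm14 over control library, at 10 hpf (left) and 24 hpf (right), log2(TPM + 0.5) after scaling, 1 point per gene. Main and other transcripts had opposite signs in 18 of 22 genes at 10 hpf and 20 at 24 hpf. The genes were chosen by their share, which favours opposite signs, and these counts were not taken over all eligible genes. Ratios with a transcript listed at 0 depend on the pseudocount.

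After scaling, 3 of the 22 genes at 10 hpf and 1 at 24 hpf had a 2-fold difference in summed level. The median log2 ratio of the summed level over the 22 genes was 0.31 at 10 hpf, beside 0.18 over all eligible genes, and 0.07 at 24 hpf, beside −0.12. Without rescaling these medians were 0.061 beside −0.071 at 10 hpf and 0.71 beside 0.52 at 24 hpf, and with a pseudocount of 5 TPM the 24 hpf median of the 22 was −0.082, so its sign depended on these settings. A 2-fold difference was reached at 10 hpf by 3 of the 22, all higher (cdc20 1.07, ccdc160 1.22 and ctsa 1.86 as log2 ratios), beside 2.9% of eligible genes (1.82% higher and 1.08% lower). At 24 hpf it was reached by 1, arpp19b with a log2 ratio of −1.03, beside 10.8% (1.96% higher and 8.79% lower). Without rescaling 1 of the 22 was 2-fold higher and none lower at 10 hpf, beside 0.442% and 2.01% of eligible genes. At 24 hpf 5 were then 2-fold higher and none lower, beside 16.8% and 0.835%.

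The 6 genes of opposite direction differed between treatments at each stage, but the controls of the stages differed as well. The largest differences at 10 and 24 hpf among these 6 were in cbll1, which encodes Hakai, an E3 ubiquitin ligase that is also part of the m6A RNA methylation machinery. Its main transcript ENSDART00000066978 had 0.54 against 91.7 TPM at 10 hpf (control against rbm14), and 35.8 against 0.61 TPM at 24 hpf. The second, ENSDART00000015834, had 59.4 against 2.87 TPM, then 1.38 against 40.25 TPM. The share of the former was thus 0.631% and 73.3% at 10 hpf and 82.4% and 1.06% at 24 hpf, so the share was near 0 in the 10 hpf control and in the 24 hpf rbm14 library and high in the other pair. A further transcript, ENSDART00000140722, was present in all 4 libraries, at 25.7 against 30.45 TPM and then 6.26 against 16.8 TPM.

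In bcl9, a coactivator of β-catenin in Wnt signalling, ENSDART00000113559 had 0.01 against 4.89 TPM at 10 hpf, and at 24 hpf 11.9 TPM in the control and a value listed at 0 with the rbm14 morpholinos. The main share was 99.95% and 75.3%, then 29.7% and 100%. Cathepsin A is a lysosomal protease, encoded by ctsa, whose main share was 99.95% and 42.8% at 10 hpf and 25.04% and 61.5% at 24 hpf. Its second transcript ENSDART00000168367 was listed at 0 in the 10 hpf control and stood at 32.3 TPM in the rbm14 library, then at 12.6 against 9.57 TPM. Both of these genes had nearly pure main transcript in the 10 hpf control and a minor main transcript in the 24 hpf control. In ttc3, an E3 ubiquitin ligase gene in human, the main share was 68.2% and 44.1%, then 23.3% and 59.9%. The main ttc3 transcript ENSDART00000127228 had 9.78 against 5.02 TPM and then 3.8 against 18.8 TPM, and ENSDART00000146125 had 4.56 against 5.9 TPM and then 10.5 against 8.59 TPM. The gene ubap2l, whose human product takes part in forming stress granules, had main shares of 26.7% and 50.0% at 10 hpf and 70.1% and 38.7% at 24 hpf. Its main transcript ENSDART00000151400 stayed between 11.65 and 16.3 TPM in the 4 libraries, while ENSDART00000151799 had 16.7 against 8.71 TPM and then 3.87 against 17.05 TPM. For phc2a, which encodes a subunit of Polycomb repressive complex 1, they were 76.8% and 97.2%, then 94.4% and 58.4%. The main phc2a transcript ENSDART00000054362 had 23.8 against 24.1 TPM and then 14.9 against 11.5 TPM, while ENSDART00000132343 had 5.68 against 0.25 TPM, and at 24 hpf was listed at 0 in the control and stood at 5.13 TPM with the rbm14 morpholinos. In ubap2l and phc2a the other transcripts therefore differed more than the main one in TPM.

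By arithmetic an opposite direction needs the stages to differ in at least 1 treatment. The control shares of the stages differed by 20 or more points in 5 of these 6 genes, phc2a being the exception, with a median of 57.6 points. The rbm14 shares did so in 3, cbll1, phc2a and bcl9.

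Other genes were examined through 21 lists of gene families, of which only some are described here. The 21 lists held 855 of the eligible genes, and 7 of the 22 genes were on a list, spread over 6 lists. The other 15, among them tsr1, stau1 and wls, were on none, so the lists do not cover all functions named above. Of 41 SR and hnRNP genes, 1 was past the threshold as higher at 10 hpf, beside 1.47% of all eligible genes (2.06% lower), and none at 24 hpf. This was hnrnpr, with 35.6% and 56.1%, then 49.5% and 68.8%. Of 44 spliceosome genes, 1 was higher and 1 lower at each stage, and none passed at both. Among the 59 genes of the cell cycle list 2 were higher and none lower at 10 hpf. At 24 hpf 5 were higher and 3 lower, beside 3.34% higher and 3.93% lower over all eligible genes. That list lacks arpp19b, which was lower at both stages (−44.3 and −36.5 points). Of 68 ubiquitin and proteasome genes 2 were higher and none lower at 10 hpf, and none higher and 3 lower at 24 hpf. That list lacks the ubiquitin ligase genes cbll1 (72.7 and −81.3 points) and ttc3 (−24.1 and 36.7 points), so its counts leave them out. Of 11 eligible dorsoventral and axis patterning genes, none was past the threshold at 10 hpf and 1 was lower at 24 hpf. This was acvr1l (80% and 56.2%).

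The libraries differed in more than these genes. Summed TPM of 6 gastrula genes (ta, tbx16, gsc, chd, vox and vent) was 1623 against 2298 at 10 hpf and 101.8 against 156 at 24 hpf, with all 6 genes higher in the rbm14 library at both stages in TPM as deposited. After scaling, all 6 were higher at 10 hpf but 4 of 6 at 24 hpf, and the 24 hpf sum had a log2 ratio of −0.029. Over 6 genes of differentiated tissue (crybb1, myhz1.1, pvalb1, hbbe1.1, mpx and elavl3) it was 7.08 against 0.82, then 2634 against 359, and hbbe1.1, a globin gene, alone made up 5.22 and 2266 TPM of the control sums. At 24 hpf 5 of these 6 were lower with and without scaling, the exception being elavl3, while most of them were near 0 in both 10 hpf libraries. Over 6 stress and arrest genes (cdkn1a, mdm2, bbc3, phlda3, ccng1 and gadd45aa) it was 566 against 1004, then 293 against 3782.5, with all 6 higher at both stages with and without scaling. The organizer gene gsc was listed at 0 in the 24 hpf control, and pvalb1 and mpx were listed at 0 in the 10 hpf rbm14 library. The part of such differences in the shares above was not tested.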

How the data were processed

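The deposited values are TPM for 57596 Ensembl transcripts, each paired with a gene symbol, in 1 file per library. Values are fractional, and every library's total is 1000000. The submitters' processing notes name GRCz10, HISAT2 2.0.1, Trimmomatic 0.30 and HTSeq 0.6.1 without roles. How reads were split among transcripts, under which annotation and with which strand setting, is not given in the sources used here. Reads of overlapping transcripts and of antisense genes may therefore be divided wrongly. TPM keeps no depth, so the depth is unknown and no interval or detection limit was computed.

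TPM was summed by symbol, and a transcript's share is its percent of that sum, which library scaling does not alter. The members, the lists and the rule were chosen with earlier results of these data known. Genes were named from each direction class by the smaller of the 2 absolute differences (up to 8), with up to 2 per list, 2 on either side of the threshold, the 5 of highest lowest-library level among those whose leading transcript differed at both stages, and rbm14a and rbm14b. The other members were named so that each is accounted for, except 1 member that is counted but not reported here. Lists are symbol patterns, so a match follows the symbol, not a checked function. The symbol of ubap2l matched the ubiquitin list in this way, while those of cbll1 and ttc3 did not match it.

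Summed levels were compared as log2(TPM + 0.5) after subtracting a trimmed mean log2 ratio. That mean used genes that reached 1 TPM in each library of the pair, trimming 30% of ratios and 5% of levels at each end. Python 3.11.15 with pandas 2.3.3 was used, and the counting was checked on simulated shares. With 1 library per group no p-value was computed. RefSeq names come from assembly GRCz12tu and not from GRCz10, so no coordinates are given.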

Additional observations from a re-analysis of the deposited data

Results flagged for a closer look

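In 6 genes the share differed in opposite directions at the stages, and the difference between the stages was not tested, since each treatment and stage has 1 library. Subtracting the 10 hpf difference in main share (rbm14 minus control) from the 24 hpf one gave −154.1 points for cbll1, −54.7 points for ubap2l and −56.5 points for phc2a. It gave 93.6 points for ctsa, 94.96 points for bcl9 and 60.8 points for ttc3.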

How the results depend on the processing

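The number of genes depended strongly on the threshold and on the floor. At 15, 25 and 30 points there were 58 (38 in the same direction and 20 in opposite directions), 8 (6 and 2) and 6 (4 and 2), with 7.36%, 1.77% and 1.08% of eligible genes past the threshold at 10 hpf and 11.7%, 4.76% and 3.53% at 24 hpf. At floors of 5, 20 and 50 TPM there were 45 (28 and 17), 8 (6 and 2) and 3 (3 and 0), with 1.91% and 3.83% past the threshold at the stages for 50 TPM. With no floor there were 862 (477 and 385), and 22.3% and 21.6% were past it. Counting the change of the whole mixture gave 34, of which 25 in the same direction. Adding 0.5 TPM to each transcript kept 18 of the 22, losing zgc:112052, myh9a, ccdc160 and phc2a, and leaving out transcripts under 1 TPM kept 21, losing phc2a.

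With the main transcript taken from the controls, 21 of the 22 remained among 23, without cdc20. The transcript followed, and with it the sign, then changed in 5 genes. Taking the transcript highest in the controls by itself favours lower shares in the rbm14 libraries. The differences at 10 and 24 hpf became −41.3 and −48.8 points for ets2, −12.5 and −25.2 for cdc20, −27.1 and −85.6 for ccne2, −67.0 and 66.6 for cbll1, and 20.001 and −37.0 for ttc3. "Higher" in ets2, cdc20 and ccne2 thus names the transcript that leads over all 4 libraries.

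The median log2 ratio of the summed level was 0.061 at 10 hpf and 0.71 at 24 hpf without rescaling, and −0.082 at 24 hpf with a pseudocount of 5 TPM. No paired analysis was possible because each group has 1 library and the labels give no replicate numbers. A fit over both stages with stage as a term, which would leave 1 residual degree of freedom, was not run. No library could be left out, since the rule needs all 4. Depth is unknown, so the counting error of a share could not be set beside any difference.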

Other observations

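Among 6812 transcripts of the eligible genes, 7 were at 0.5 TPM or less in both controls and at 5 TPM or more in both rbm14 libraries, limits chosen after values were seen. They belong to 7 genes, 3 of them described above (kiaa0907, tsr1 and ccdc160) and 1 of them oaz1b. The reverse was seen for 3 transcripts, all of npm1a. Both counts use TPM without rescaling, where the median log2 ratio of eligible genes was −0.071 at 10 hpf and 0.52 at 24 hpf. The other 3 of the 7 genes were supt5h, racgap1 and a clone-named gene with ENSDART00000125838. In supt5h, a transcription elongation factor gene, ENSDART00000062676 held 0.0404% and 15.4% in the control and rbm14 libraries at 10 hpf and 0.0536% and 91.9% at 24 hpf. In racgap1, which acts in cytokinesis, ENSDART00000143638 was listed at 0 in both controls and stood at 8.89 and 6.01 TPM in the rbm14 libraries.

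The share of genes differing in 1 direction at both stages was higher at higher floors. It was 55.3% of 862 genes with no floor, 62.2% of 45 at 5 TPM, 72.7% of 22 at 10 TPM, 75% of 8 at 20 TPM and 100% of 3 at 50 TPM. These sets are nested, were chosen by the same differences and end in few genes, so the trend was not tested. It did not rise steadily with the threshold, at 65.5% for 15 points, 72.7% for 20, 75% for 25 and 66.7% for 30.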
